A study of Homo sapiens with 6 samples.

Results

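The constitutive proteasome was followed here through 36 of the 59609 gene names measured in the 95D line, which is derived from a human lung cancer. The 36 genes were chosen by name, with earlier results of these data known. Of these, 14 are subunits of the core particle (PSMA1 to PSMA7 and PSMB1 to PSMB7). Another 18 are subunits of the regulatory particle (the 6 PSMC genes, 11 PSMD genes and ADRM1). The last 4 are assembly factors (POMP, PSMG1, PSMG2 and PSMD9). The 36 genes lie on 17 chromosomes. Cells of wild-type genotype were seeded for 24 h in complete medium and then kept for 48 h in DMEM without glucose (2 libraries), in DMEM without glutamine (1 library used of 2 labelled) or in control DMEM (2 libraries). Every medium held 10% serum. For both deprived media the serum was dialyzed. The labels do not say this of the control medium, so the missing nutrient and the kind of serum cannot be told apart in either comparison with control. All groups are 1 established cell line. The labels do not tell whether replicates were grown apart, and p-values therefore measure the spread between these libraries alone, which may be technical.

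The proteasome degrades proteins that carry ubiquitin chains and returns their peptides to the pool of amino acids. Its core particle is a barrel of stacked rings: alpha subunits form the outer rings and the gate, and beta subunits form the inner rings, where PSMB5, PSMB6 and PSMB7 cut the protein. The regulatory particle caps the barrel. Its base holds a ring of ATPases (the PSMC genes) that unfolds substrates, together with scaffolds and ubiquitin receptors, and its lid holds PSMD14, the enzyme that removes the ubiquitin chain. The subunits assemble in fixed proportions, and the transcription factor NRF1, encoded by NFE2L1, is known to raise their genes together when proteasome activity is low.

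RNA depleted of ribosomal RNA was sequenced as paired reads of 150 bases. Levels are given as FPKM, fragments scaled by transcript length and by the number of mapped fragments, after a further scaling for composition. They are per length, but the lengths used were not given, so comparisons of level between genes are less certain. Inferred depth was 36760000 and 35130000 reads for the glucose-deprived libraries, 34530000 for the glutamine-deprived library and 35470000 and 48930000 for the controls. Each of the 36 genes rested on 975 (PSMG2) to 13326 (PSMB4) inferred reads in a library. Of 8 markers listed for a lung carcinoma line, epithelial genes and the mesenchymal gene VIM, 4 passed the filter on low values (KRT18, KRT8, VIM and NKX2-1). EPCAM, CDH1 and SFTPC were under 1 FPKM and KRT19 was listed at 0 in all 5 libraries. NKX2-1 had a log2 fold change of -0.28 without glucose (limma adjusted p = 0.0547) and passed the threshold in neither deprived medium. VIM, a filament gene of mesenchymal cells, had 135 and 150.4 FPKM without glucose, 85.1 FPKM without glutamine and 77.7 and 76.2 FPKM in control medium (log2 fold changes of 0.88, limma adjusted p = 2.57e-05, and 0.14, 0.125). KRT18 fell in both media (-0.27, limma adjusted p = 0.0193, and -0.32, 0.0246), KRT8 rose without glucose (0.20, 0.041), and the part of these markers in the results was not tested. Of 12 markers of immune, endothelial, fibroblast and erythroid cells, 1 passed it: COL1A1 had 0.384 and 0.388 FPKM in the glucose-deprived libraries, 1.83 FPKM in the glutamine-deprived library and 0.642 and 0.575 FPKM in the controls. The 12 markers summed to 0.801 and 0.774, 2.73, and 1.54 and 1.29 FPKM in the same order of media, CD3E was listed at 0 in all 5 libraries, and their part in the results was not tested. Fewer cells of a type and less RNA per cell cannot be told apart in such bulk samples.

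Without glucose, RNA of nearly every proteasome gene was lower than in control medium. Of the 36 genes, 33 fell, none rose, and 3 did not pass the test (PSMD4, PSMG1 and PSMG2). The test was limma on log2(FPKM + 1) with Benjamini-Hochberg adjustment over 16598 genes, two-sided, at an adjusted p of 0.05. Among all genes tested 54.6% were called, 28.2% lower and 26.4% higher. The calls split into 4380 higher and 4677 lower in the scaling used, 4860 and 4103 as deposited and 3518 and 5547 with upper-quartile scaling. Mean levels of at least 10 FPKM were reached by 34 of the 36 and by 4472 tested genes, of which 73.6% were called, 52.3% lower and 21.2% higher. The median log2 fold change of the 36 genes was -0.52, with a range of -0.88 to 0.11, beside 0.025 for all genes tested and -0.16 for those of at least 10 FPKM. As a percentage of the control mean, the 36 genes stood at a median of 68.7%, between 53.3% and 109%. Both glucose-deprived libraries lay below both controls for 35 of the 36 genes, the exception being PSMG2, which compares with 38.1% of all genes tested. That share was not counted for genes of at least 10 FPKM, of which 2969 of 4472 had a negative log2 fold change. Calls over all genes were 9057 in all and became fewer when any control or glucose-deprived library was left out. The median log2 fold change of the 36 genes was -0.53 without control replicate 1 and -0.54 without control replicate 2. It was -0.48 without glucose deprivation replicate 1 and -0.56 without glucose deprivation replicate 2.

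Without glutamine, all 36 genes were lower than in control medium. Each of the 36 passed the limma test. Of all genes tested 51.0% were called, 26.4% lower and 24.6% higher. Of genes of at least 10 FPKM 75.3% were called, 64.7% lower and 10.6% higher. The median log2 fold change of the 36 genes was -0.66, with a range of -1.04 to -0.23, beside 0.045 for all genes tested and -0.31 for those of at least 10 FPKM. The glutamine-deprived library held a median of 61.3% of the control mean, between 47.8% and 83.7%. It lay below both controls for 36 of 36 genes, as it did for 41.7% of all genes tested. That share was not counted for genes of at least 10 FPKM, of which 3595 of 4472 had a negative log2 fold change. The glutamine-deprived group is 1 library, assumed in the fit to vary like the other groups. With values as deposited, unscaled, the median of all genes moved by 0.13 and the calls over all genes split into 5945 higher and 2862 lower, against 4083 and 4379 after scaling. With upper-quartile scaling they split into 2669 higher and 5911 lower. Of the 36 genes 35 and 36 were called lower under these scalings, and their median stood -0.68 and -0.73 from that of all genes, beside -0.70 in the scaling used. Without control replicate 1 and without control replicate 2, the 8462 calls over all genes became 5594 and 5486. Both comparisons share the same 2 control libraries.

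**Figure D1:**
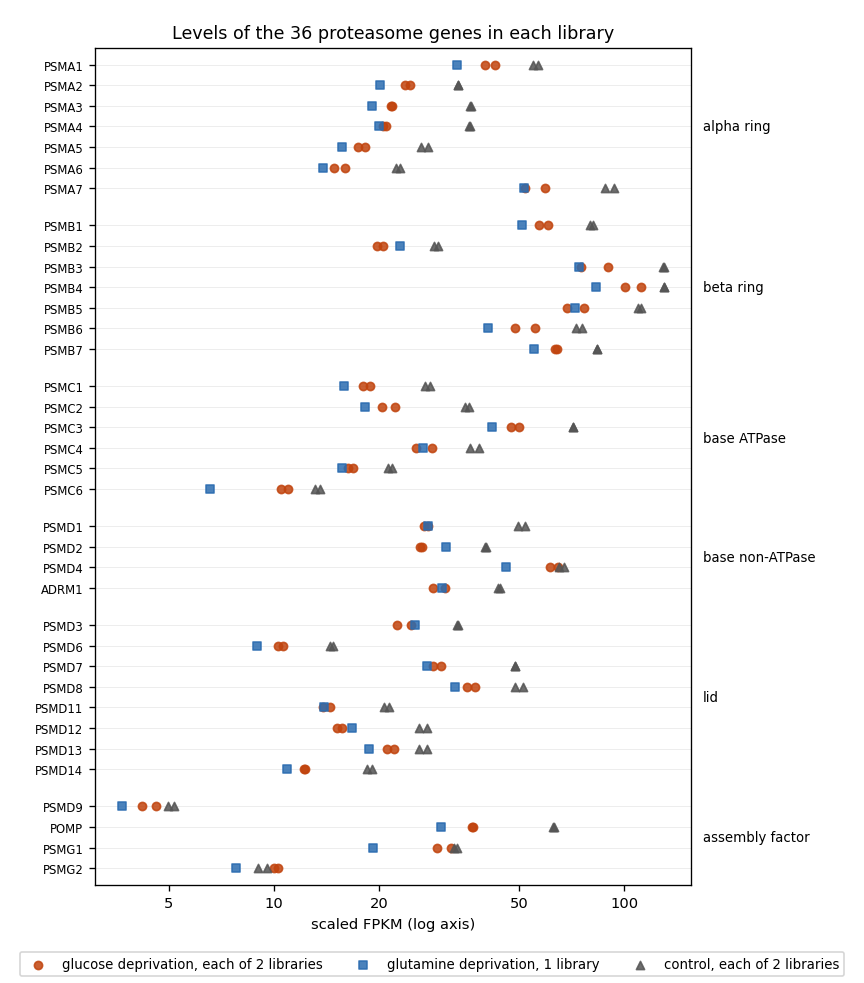
Level of each of the 36 proteasome genes in each library, in scaled FPKM on a log axis, grouped by role from top to bottom. Orange circles are the 2 glucose-deprived libraries, blue squares the glutamine-deprived library and grey triangles the 2 controls. The triangles lie to the right of the other symbols for every gene except PSMG2, where the circles lie furthest to the right.

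Promoter sequences are shown for 3 of these genes because NRF1 and its relatives bind a short element known as the antioxidant response element. Windows of 250 bases before the annotated start were taken from RefSeq (GRCh38.p14), where 31 of the 36 genes had an entry. The element's core was searched as TGACNNNGC on both strands, and CCAAT, the site of the factor NF-Y, likewise. No TGACNNNGC match overlapped a CCAAT match in these windows. PSMB3, a beta ring subunit and the gene of the second highest level, holds both motifs. PSMD12, a lid subunit, was among the 3 genes with the lowest fold change without glucose, and PSMG2, an assembly factor, had the highest fold change in both comparisons with control. Both hold the first motif only. Capitals mark TGACNNNGC and CCAAT.
PSMB3, chr17:38752491-38752740, plus strand: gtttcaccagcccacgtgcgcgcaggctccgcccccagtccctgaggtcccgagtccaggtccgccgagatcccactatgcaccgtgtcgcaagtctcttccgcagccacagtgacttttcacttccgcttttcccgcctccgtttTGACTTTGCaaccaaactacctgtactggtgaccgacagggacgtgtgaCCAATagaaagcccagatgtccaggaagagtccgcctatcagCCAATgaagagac
PSMD12, chr17:67366578-67366827, minus strand: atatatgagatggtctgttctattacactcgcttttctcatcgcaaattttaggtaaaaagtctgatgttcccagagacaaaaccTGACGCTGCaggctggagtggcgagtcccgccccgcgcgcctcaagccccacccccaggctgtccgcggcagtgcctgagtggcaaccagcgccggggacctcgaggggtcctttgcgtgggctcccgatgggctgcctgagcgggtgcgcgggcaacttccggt
PSMG2, chr18:12658488-12658737, plus strand: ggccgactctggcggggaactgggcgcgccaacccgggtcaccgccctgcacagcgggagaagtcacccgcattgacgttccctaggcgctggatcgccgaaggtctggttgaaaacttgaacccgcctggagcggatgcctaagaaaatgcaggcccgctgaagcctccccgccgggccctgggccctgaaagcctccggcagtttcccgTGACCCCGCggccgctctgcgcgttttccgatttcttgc

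Of the 31 proteasome promoters, 7 held TGACNNNGC (22.6%), against 12.3% of the 9605 promoters of tested genes with a window. They belong to ADRM1, PSMB3, PSMD3, PSMD9, PSMD12, PSMG1 and PSMG2. Of these, PSMD9, PSMG1 and PSMG2 are assembly factors, with log2 fold changes of -0.17, -0.11 and 0.11 without glucose. The remaining assembly factor, POMP, had no match and stood at -0.75. Motif and role are therefore mixed in the medians that follow. CCAAT stood in 15 of 31 (48.4%), against 35.9% of the 9605. The 7 genes with TGACNNNGC had a median log2 fold change of -0.48 without glucose and -0.52 without glutamine, and the 24 without it had -0.54 and -0.72. The ranges of these groups overlapped in both media. A match is only a run of letters in this window, not a bound site.

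In the alpha ring, which gates the barrel, 7 of 7 genes fell in both deprivations, with medians of -0.58 without glucose and -0.75 without glutamine. PSMA4 had 20.9 and 20.5 FPKM in the glucose-deprived libraries, 19.9 FPKM in the glutamine-deprived library and 36.3 and 36.05 FPKM in the controls. Both deprived media were far below the controls, which lay within 1 FPKM of each other, and the 3 deprived libraries lay close together. The log2 fold change of PSMA4 was -0.78 ± 0.04 (SE) without glucose (limma adjusted p = 1.14e-05) and -0.83 ± 0.05 without glutamine (3.88e-05). PSMA3 had 21.6 and 21.8 FPKM without glucose, 19.0 FPKM without glutamine and 36.5 and 36.3 FPKM in control medium. Its log2 fold change of -0.90 ± 0.05 without glutamine (limma adjusted p = 3.62e-05) was the lowest of the core particle in that medium. The other 5 alpha genes lay between -0.69 (PSMA7) and -0.42 (PSMA1) without glucose and between -0.80 (PSMA7) and -0.67 (PSMA6) without glutamine.

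For 3 alpha genes, as for PSMD9 described later, the level is less certain, since GENCODE release 29 places another gene name on the same strand over part of their exons. PSMA1 shares 24.7% of its exon bases with AC018523.2, PSMA2 14.6% with AC010132.3 and PSMA6 14.1% with AL121594.1, and reads there could have been split between the names. Summed with its partner, PSMA1 had 64.1 and 67.9 FPKM without glucose, 58.1 FPKM without glutamine and 89.1 and 87.8 FPKM in control medium. PSMA2 with its partner had 53.9 and 54.8, 45.9, and 73.3 and 73.3 FPKM in the same order of media. PSMA6 with its partner had 37.1 and 39.9, 38.6, and 58.4 and 56.7 FPKM. All 3 sums lay below both controls in both deprivations, as the genes alone did.

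The beta ring held the most abundant transcripts of the complex: PSMB4, PSMB3 and PSMB5, in that order, were the highest of the 36 genes in each of the 5 libraries. All 7 beta genes fell in both deprivations, with medians of -0.51 without glucose and -0.64 without glutamine. PSMB5, the chymotrypsin-like site, had 68.9 and 76.8 FPKM in the glucose-deprived libraries, 72.3 FPKM in the glutamine-deprived library and 109.5 and 112 FPKM in the controls. The glutamine-deprived value fell between those without glucose, and the controls did not overlap with either. The log2 fold change of PSMB5 was -0.60 ± 0.06 without glucose (limma adjusted p = 0.000112) and -0.61 ± 0.07 without glutamine (0.000303). PSMB6, the caspase-like site, had 48.6 and 55.6 FPKM without glucose, 40.7 FPKM without glutamine and 75.8 and 72.9 FPKM in control medium. Its log2 fold changes were -0.51 ± 0.07 (limma adjusted p = 0.000476) and -0.85 ± 0.08 (0.000141), and its glutamine-deprived value was the lowest of the 5. PSMB7, the trypsin-like site, had 64.4 and 63.4 FPKM without glucose, 55.3 FPKM without glutamine and 83.9 and 83.7 FPKM in control medium. Its decrease was the smallest of the catalytic genes in both media, at -0.39 ± 0.04 without glucose (limma adjusted p = 0.000163) and -0.59 ± 0.05 without glutamine (8.89e-05). The differences between these 3 genes were not tested.

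PSMB2, a beta subunit without catalytic activity, was among the 3 genes with the smallest decrease without glutamine. It had 19.7 and 20.4 FPKM without glucose, 22.9 FPKM without glutamine and 28.6 and 29.4 FPKM in control medium, so that the glutamine-deprived library lay between the other media. Its log2 fold changes were -0.51 ± 0.04 without glucose (limma adjusted p = 6.36e-05) and -0.33 ± 0.05 without glutamine (0.00148). PSMB4 showed the smallest decrease of the core particle without glucose, with 101 and 112 FPKM in glucose-deprived and 129.9 and 130.0 FPKM in control libraries. That log2 fold change of -0.29 ± 0.05 (limma adjusted p = 0.003) did not pass the threshold without control replicate 1 (0.0528) or without control replicate 2 (0.0529), nor without a filter on low values (0.0817). PSMB3 had log2 fold changes of -0.64 without glucose, the lowest of the ring (limma adjusted p = 0.000335, and 0.0504 without a filter on low values), and -0.79 without glutamine, and PSMB1 had -0.45 and -0.64.

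The ATPases of the base, which form the unfolding ring, fell in 6 of 6 cases in both deprivations, with medians of -0.50 without glucose and -0.76 without glutamine. PSMC2 had 20.4 and 22.2 FPKM without glucose, 18.2 FPKM without glutamine and 35.1 and 35.9 FPKM in control medium. Log2 fold changes of PSMC2 were -0.71 ± 0.05 (limma adjusted p = 3.61e-05) and -0.93 ± 0.06 (5.20e-05), the lowest of the ring in each medium. PSMC6 had the largest difference of the ring between the deprivations. Its levels were 10.9 and 10.4 FPKM without glucose, 6.56 FPKM without glutamine and 13.1 and 13.6 FPKM in control medium, with no overlap between any of the groups. Its log2 fold change was -0.29 ± 0.05 without glucose (limma adjusted p = 0.00117), the smallest decrease of the ring, and -0.92 ± 0.06 without glutamine (4.28e-05).

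Smaller decreases without glutamine than those of PSMC2 and PSMC6 were measured for the other 4 ATPases. PSMC3, the most abundant ATPase transcript, had 47.5 and 50.1 FPKM without glucose, 41.8 FPKM without glutamine and 71.4 FPKM in both controls. They gave log2 fold changes of -0.54 ± 0.04 (limma adjusted p = 5.64e-05) and -0.76 ± 0.05 (5.71e-05). PSMC4 had 25.4 and 28.2 FPKM without glucose, 26.7 FPKM without glutamine and 38.5 and 36.2 FPKM in control medium. Its call without glutamine did not hold without a filter on low values. Its glutamine-deprived value fell between those without glucose, and its log2 fold changes were -0.46 ± 0.06 (limma adjusted p = 0.000501) and -0.47 ± 0.07 (0.00141). PSMC1 had 17.9 and 18.8 FPKM without glucose, 15.8 FPKM without glutamine and 27.0 and 27.8 FPKM in control medium, with log2 fold changes of -0.56 ± 0.04 and -0.75 ± 0.05 (limma adjusted p = 5.27e-05 and 5.96e-05). PSMC5 had 16.8 and 16.3 FPKM without glucose, 15.6 FPKM without glutamine and 21.1 and 21.7 FPKM in control medium, with log2 fold changes of -0.35 ± 0.04 and -0.43 ± 0.05 (limma adjusted p = 0.000372 and 0.000424). For both genes every deprived library lay below both controls. Of the exon bases of PSMC1, 75.8% overlap NRDE2 on the opposite strand, and 19.5% of those of PSMC5 overlap FTSJ3. The strand setting of the counting was not given, so reads of the partners cannot be told apart. NRDE2 was at 3.83 and 3.77 FPKM without glucose, 3.10 FPKM without glutamine and 2.53 and 2.90 FPKM in control medium, far below PSMC1. FTSJ3 was near the level of PSMC5, with 14.4 and 14.9, 12.7, and 23.9 and 24.9 FPKM in the same order.

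Of the 4 other subunits of the base, 3 fell without glucose (median -0.57) and 4 without glutamine (median -0.52). PSMD1, a large scaffold, had 26.8 and 27.5 FPKM without glucose, 27.5 FPKM without glutamine and 49.7 and 52.2 FPKM in control medium. With log2 fold changes of -0.88 ± 0.04 (limma adjusted p = 1.07e-05) and -0.86 ± 0.05 (4.54e-05), it was the lowest of the 36 genes without glucose and held nearly the same level in both deprivations. PSMD2, the second scaffold, had 26.1 and 26.4 FPKM without glucose, 31.0 FPKM without glutamine and 40.2 and 40.4 FPKM in control medium, so that glutamine deprivation lay between. The log2 fold changes of PSMD2 were -0.60 ± 0.04 (limma adjusted p = 2.55e-05) and -0.37 ± 0.05 (0.000551). The ubiquitin receptors had unlike values without glucose. PSMD4 had 61.2 and 64.6 FPKM in glucose-deprived, 46.1 FPKM in glutamine-deprived and 67.5 and 65.3 FPKM in control libraries. Without glucose the groups lay less than 1 FPKM apart at their nearest, and the log2 fold change of -0.077 ± 0.045 did not pass (limma adjusted p = 0.181), while without glutamine it was -0.52 ± 0.05 (0.000228). ADRM1, the other receptor, had 28.5 and 30.8 FPKM without glucose, 30.2 FPKM without glutamine and 44.1 and 43.6 FPKM in control medium. Its log2 fold changes of -0.55 ± 0.05 (limma adjusted p = 9.11e-05) and -0.52 ± 0.06 (0.000331) were alike in size. Whether the receptors differ from each other was not tested.

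In the lid, 8 of 8 genes fell in both deprivations, with medians of -0.51 without glucose and -0.62 without glutamine. PSMD14, the deubiquitinase, had 12.1 and 12.3 FPKM without glucose, 10.9 FPKM without glutamine and 18.5 and 19.0 FPKM in control medium. The 3 media did not overlap, and the log2 fold changes were -0.58 ± 0.04 (limma adjusted p = 3.44e-05) and -0.73 ± 0.05 (5.27e-05). PSMD12, a scaffold of the lid whose promoter is shown above, had 15.7 and 15.1 FPKM without glucose, 16.7 FPKM without glutamine and 26.0 and 27.3 FPKM in control medium. For PSMD12 the log2 fold changes were -0.75 ± 0.05 (limma adjusted p = 2.02e-05) and -0.64 ± 0.06 (0.000106). The other 6 lid genes lay between -0.72 (PSMD7) and -0.29 (PSMD13) without glucose and between -0.81 (PSMD7) and -0.39 (PSMD3) without glutamine.

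The assembly factors, which build the particles but are not part of the finished complex, included the genes with the largest and the smallest decrease of the 36 without glutamine, POMP and PSMG2. POMP, which drives assembly of the beta ring, had 36.9 and 37.0 FPKM without glucose, 30.05 FPKM without glutamine and 63.0 and 62.7 FPKM in control medium. With log2 fold changes of -0.75 ± 0.04 (limma adjusted p = 1.53e-05) and -1.04 ± 0.05 (3.42e-05), it was the lowest of the 36 genes without glutamine, at 47.8% of the control mean. PSMG1 and PSMG2 encode partners of the chaperone pair that builds the alpha ring. PSMG1 had 32.0 and 29.2 FPKM without glucose, 19.2 FPKM without glutamine and 32.6 and 33.4 FPKM in control medium. The PSMG1 value without glutamine lay far below those of its other libraries (-0.75 ± 0.07, limma adjusted p = 0.000106). Without glucose PSMG1 lay close to control (-0.11 ± 0.05, limma adjusted p = 0.128), a value that moved to -0.16 without glucose deprivation replicate 1. PSMG2, whose promoter is also shown above, had 10.0 and 10.3 FPKM without glucose, 7.77 FPKM without glutamine and 9.57 and 9.00 FPKM in control medium. Both glucose-deprived libraries lay above both controls, with a log2 fold change of 0.11 ± 0.05 that did not pass (limma adjusted p = 0.103). Without glutamine it was -0.23 ± 0.06 (limma adjusted p = 0.0205), the smallest decrease of the 36, and it did not pass without control replicate 1 (0.107), with values as deposited (0.333) or without a filter on low values (0.0698). PSMD9, a chaperone of the base, was the least abundant of the 36 at 3.69 to 5.19 FPKM, and its log2 fold changes were -0.17 ± 0.06 without glucose (limma adjusted p = 0.0324) and -0.38 ± 0.07 without glutamine (0.00281). The call without glucose did not hold without control replicate 1 (0.187), without control replicate 2 (0.1004) or without glucose deprivation replicate 1 (0.144), nor as deposited (0.0671), without a filter on low values (0.151) or with a variance trend on mean level (0.0807). The PSMD9 call without glutamine did not hold without a filter on low values. PSMD9 also shares 14.9% of its exon bases with AC069503.2 on the same strand, so its level is less certain. That name had 6.15 and 6.92 FPKM without glucose, 6.02 FPKM without glutamine and 8.40 and 7.90 FPKM in control medium, above PSMD9 in every library.

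**Figure D2:**
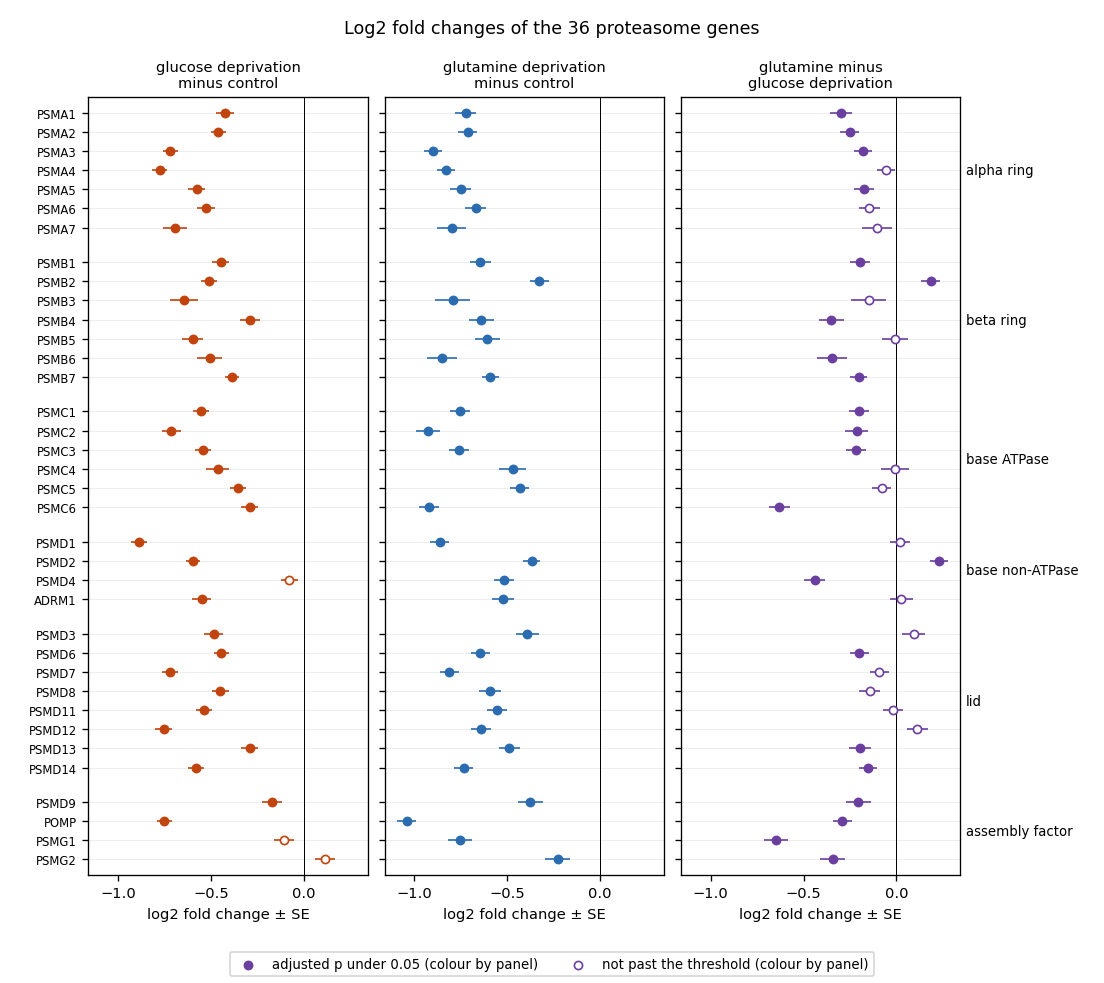
Log2 fold changes of the 36 genes on the log2(FPKM + 1) scale, with bars of 1 SE from the limma fit, for glucose deprivation minus control, glutamine deprivation minus control, and glutamine minus glucose deprivation. Filled points passed an adjusted p of 0.05. In the left panel only PSMG2 lies right of 0, in the middle panel no gene does, and in the right panel the genes lie on both sides.

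The core and the regulatory particle were next set side by side. The 14 core genes fell in 14 cases without glucose (median -0.52) and in 14 without glutamine (-0.72). The 18 regulatory genes fell in 17 cases without glucose (-0.54), PSMD4 being the exception, and in 18 without glutamine (-0.62). The mean log2(FPKM + 1) of the core genes lay -0.59 and -0.49 from the control mean in the glucose-deprived libraries and -0.70 in the glutamine-deprived library. For the regulatory genes these distances were -0.53, -0.50 and -0.63. Core and regulatory genes thus both stood lower in the 3 deprived libraries. Without glucose the core stood further from control than the regulatory particle in 1 library and slightly closer in the other. Without glutamine the core median lay below the regulatory median, at -0.72 and -0.62. It did so as deposited (-0.56 and -0.46) and with upper-quartile scaling (-0.88 and -0.77). That medium is 1 library, and whether the particles differ was not tested. The assembly factors stood at -0.23 and -0.23 without glucose and at -0.60 without glutamine, a mean over unlike genes, since POMP alone stood at -0.75 without glucose and PSMG2 at 0.11. The controls were within 0.02 of their mean in each class.

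**Figure D3:**
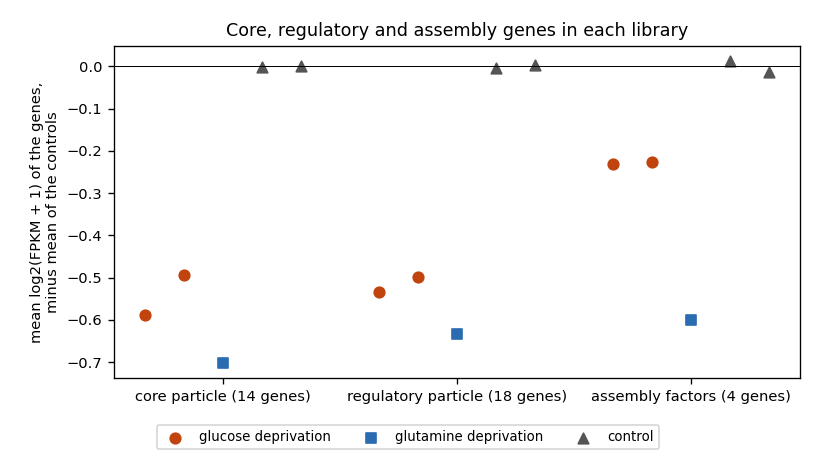
Mean log2(FPKM + 1) of the core, regulatory and assembly genes in each library, minus the mean of the 2 controls; each symbol is 1 library. Core and regulatory genes lie between -0.49 and -0.70 in the 3 deprived libraries, while the assembly genes lie at -0.23 in both glucose-deprived libraries and at -0.60 in the glutamine-deprived library.

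The balance of the particles can be read from 1 number per library. The mean log2 level of core genes exceeded that of regulatory genes by 0.74 and 0.80 in the glucose-deprived libraries, by 0.73 in the glutamine-deprived library and by 0.80 and 0.80 in the controls. The ratio of summed FPKM, core over regulatory, was 1.41 and 1.48 without glucose, 1.38 without glutamine and 1.45 and 1.46 in control medium. The glucose-deprived libraries stood on both sides of the controls in each measure, and the glutamine-deprived library was the lowest of the 5 in both. Summed over the 36 genes, FPKM came to 1152 and 1223 without glucose, 1048 without glutamine and 1697 and 1699 in control medium.

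**Figure D4:**
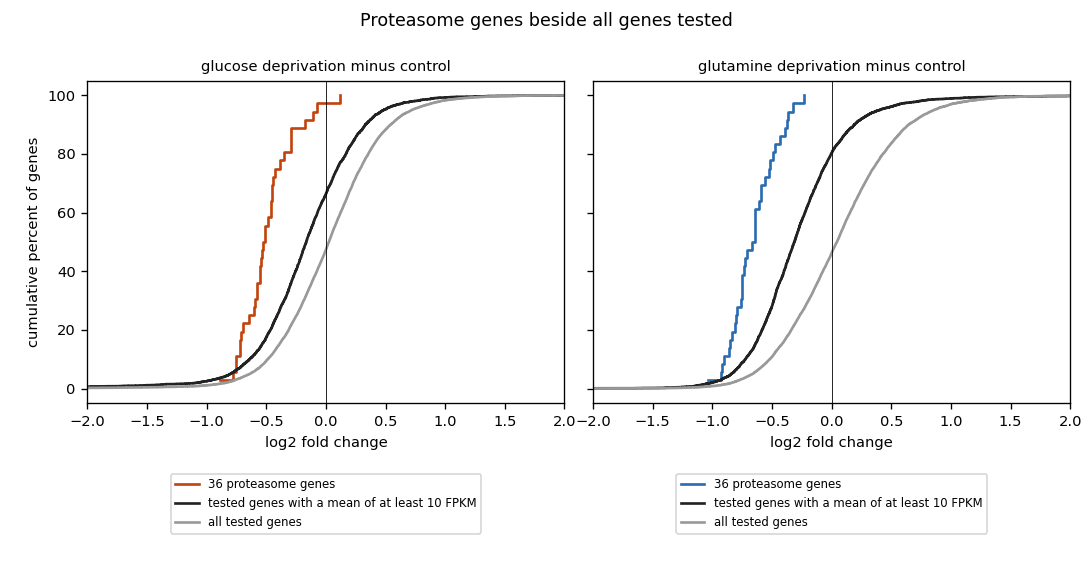
Cumulative percentage of genes (vertical axis) at or below a log2 fold change (horizontal axis; genes beyond its ends are not drawn) for the 36 proteasome genes, for the 4472 tested genes that average at least 10 FPKM and for all 16598 tested genes, for glucose deprivation minus control on the left and glutamine deprivation minus control on the right. The proteasome curve lies left of the others over most of its range, with medians of -0.52 and -0.66 beside -0.16 and -0.31 for genes of at least 10 FPKM.

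Glutamine deprivation was also compared with glucose deprivation directly, with dialyzed serum on both sides. Of the 36 genes 20 were lower without glutamine than without glucose, 2 were higher (PSMB2 and PSMD2) and 14 did not pass. Among all genes tested 44.3% were called, 22.0% lower and 22.3% higher. Among those of at least 10 FPKM 61.6% were called, 43.7% lower and 17.9% higher. The median log2 fold change of the 36 was -0.18, beside 0.014 for all genes tested and -0.13 for those of at least 10 FPKM, so the median of the 36 was close to that of abundant genes. The glutamine-deprived library lay below both glucose-deprived libraries for 27 genes, as it did for 42.0% of all genes tested, between them for 4 and above both for 5. That share was not counted for genes of at least 10 FPKM, of which 2948 of 4472 had a negative log2 fold change. The number of the 36 genes called lower moved with the setting: it was 8 with values as deposited and 24 with upper-quartile scaling. The splits over all genes were 5035 higher and 2338 lower as deposited and 2861 higher and 4613 lower with upper-quartile scaling, against 3704 and 3653 in the scaling used. Among the proteasome genes, 8 were called lower without control replicate 1, 8 without control replicate 2, 21 without glucose deprivation replicate 1 and 13 without glucose deprivation replicate 2, and 1, 1, 1 and 2 were called higher.

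The lowest values of this direct comparison belonged to genes of different roles. PSMG1, the alpha ring chaperone, had a log2 fold change of -0.65 ± 0.07 between 19.2 FPKM without glutamine and 32.0 and 29.2 FPKM without glucose (limma adjusted p = 0.000325). The ATPase gene PSMC6 followed at -0.63 ± 0.06 (limma adjusted p = 0.000197), and the receptor gene PSMD4 at -0.44 ± 0.05 (0.00072). The 4 assembly factors were called lower without glutamine, PSMD9 not under 7 of the alternatives (adjusted p between 0.101 and 0.218), with a median of -0.32, beside -0.18 for the core and -0.12 for the regulatory particle. At the other end, PSMD2 had 31.0 FPKM without glutamine and 26.1 and 26.4 FPKM without glucose, a log2 fold change of 0.23 ± 0.05 (limma adjusted p = 0.0064). PSMB2 had 0.18 ± 0.05 (limma adjusted p = 0.0226), which did not pass with upper-quartile scaling (0.139), without a filter on low values (0.0705), or without control replicate 1 (0.0775), control replicate 2 (0.0788) or glucose deprivation replicate 1 (0.0671). PSMD12, next in that order, did not pass at 0.11 ± 0.06 (limma adjusted p = 0.138). For the catalytic genes the direct values were -0.0082 ± 0.069 for PSMB5 (limma adjusted p = 0.936), -0.35 ± 0.08 for PSMB6 (0.0103) and -0.20 ± 0.05 for PSMB7 (0.0113). PSMB6 did not pass without a filter on low values (0.133), without control replicate 1 (0.0543) or without control replicate 2 (0.0558), and PSMB7 did not as deposited (0.27) or without control replicate 1 (0.0508) or 2 (0.0517). Of the 20 genes called lower, 5 were called under every alternative run (PSMC6, PSMD4, POMP, PSMG1 and PSMG2), and 1 of the 2 called higher was (PSMD2). PSMD1 and ADRM1 stood at 0.021 and 0.027 and PSMC4 and PSMD11 at -0.0068 and -0.017, none past the threshold.

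Other parts of the ubiquitin and proteasome pathway were read from 4 lists outside the 36 genes, whose counts and medians are to be set beside those of all genes tested given above. The alternative settings were not read for single genes of these lists. Whether small changes there, such as those of NFE2L1 and IPO9 without glutamine, depend on the scaling was therefore not tested. Of 16 other proteasome subunits and chaperones, 12 passed the filter on low values. Without glucose 8 of the 12 fell and 2 rose, with a median log2 fold change of -0.39, and without glutamine 6 fell and 2 rose, with a median of -0.25. The other 4 were PSMA8 and PSMB11, which are specific to testis and thymus, PSMB8 and PSMB9. PSMB8 and PSMB9, subunits that replace the constitutive catalytic ones in immune cells, were under 1 FPKM in all 5 libraries. PSMB10, the third such subunit, had 3.79 and 4.82 FPKM without glucose, 2.55 FPKM without glutamine and 6.53 and 6.51 FPKM in control medium, with log2 fold changes of -0.51 ± 0.10 (limma adjusted p = 0.00394) and -1.08 ± 0.12 (0.000323). Of the 4 genes of alternative caps, PSME1, PSME2 and PSME3 fell without glucose and PSME4 rose, and without glutamine PSME2 and PSME3 fell, PSME4 rose and PSME1 did not pass. PSME1 and PSME2, which encode the activator induced by interferon gamma, had log2 fold changes of -0.35 and -0.55 without glucose (limma adjusted p = 0.00167 and 0.000193) and -0.16 and -0.35 without glutamine (0.103 and 0.00486). PSME3, a nuclear activator of the core, had 12.6 and 12.5 FPKM without glucose, 18.5 FPKM without glutamine and 24.2 and 25.3 FPKM in control medium, with log2 fold changes of -0.93 ± 0.04 (limma adjusted p = 9.31e-06) and -0.40 ± 0.05 (0.0006). PSME4, another activator, had 17.4 and 14.7 FPKM without glucose, 20.2 FPKM without glutamine and 13.3 and 13.5 FPKM in control medium, and rose by 0.24 ± 0.07 (limma adjusted p = 0.0201) and 0.56 ± 0.09 (0.00123) on the log2 scale. Of further chaperones, PSMD10 and PSMG3 fell in both media, PSMG4 rose without glutamine and PAAF1 rose without glucose. PSMD5, a chaperone of the base, fell without glucose (-0.29 ± 0.08, limma adjusted p = 0.014), did not pass without glutamine (0.049 ± 0.095, 0.688) and was higher without glutamine than without glucose (0.34, 0.0214).

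Of 22 proteasome-bound and shuttle factors, 21 were tested. Without glucose 10 fell and 4 rose (median -0.11), and without glutamine 9 fell and 5 rose (median -0.095). VCP, the segregase that extracts substrates, had 70.1 and 73.0 FPKM without glucose, 67.9 FPKM without glutamine and 106 and 109.5 FPKM in control medium, with log2 fold changes of -0.58 ± 0.04 (limma adjusted p = 4.72e-05) and -0.66 ± 0.05 (9.47e-05). MIDN encodes midnolin, which brings nuclear proteins to the proteasome, and had 9.80 and 10.6 FPKM without glucose, 18.6 FPKM without glutamine and 8.09 and 8.93 FPKM in control medium. Its log2 fold changes were 0.23 ± 0.06 (limma adjusted p = 0.0125) and 1.05 ± 0.07 (5.73e-05), the highest of the 4 lists without glutamine. IPO9, an importin that carries proteasomes into the nucleus, rose by 0.49 ± 0.04 without glucose (limma adjusted p = 6.26e-05) and by 0.23 ± 0.05 without glutamine (0.00583).

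The list around NRF1 held 12 genes, of which 11 were tested, with 3 lower and 3 higher without glucose (median -0.015) and 3 lower and 4 higher without glutamine (median 0.030). DDI2 is also counted among the shuttle factors. NFE2L1 itself had 17.8 and 18.2 FPKM without glucose, 20.6 FPKM without glutamine and 17.6 and 18.1 FPKM in control medium. The glucose-deprived and control libraries overlapped (0.01 ± 0.04, limma adjusted p = 0.829), and the glutamine-deprived library was the highest of the 5 (0.20 ± 0.05, 0.0143). DDI2, the protease that cleaves NRF1 to its active form, had 9.07 and 8.66 FPKM without glucose, 12.5 FPKM without glutamine and 11.9 and 12.5 FPKM in control medium. Its log2 fold change was -0.42 ± 0.05 without glucose (limma adjusted p = 0.000221) and 0.03 ± 0.06 without glutamine (0.676). SYVN1, a ubiquitin ligase of the endoplasmic reticulum, had 5.01 and 4.62 FPKM without glucose, 5.51 FPKM without glutamine and 2.61 and 2.44 FPKM in control medium, and rose by 0.72 ± 0.06 (limma adjusted p = 7.22e-05) and 0.89 ± 0.08 (0.0001002).

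Of 5 genes of ubiquitin and its activating enzymes, 4 fell and none rose without glucose (median -0.25), and 4 fell and none rose without glutamine (median -0.57). UBB, a polyubiquitin gene and the most abundant of the list, had 511 and 558 FPKM without glucose, 407 FPKM without glutamine and 652 and 622 FPKM in control medium, with log2 fold changes of -0.25 ± 0.06 (limma adjusted p = 0.00714) and -0.64 ± 0.07 (0.000267). RPS27A, which encodes ubiquitin fused to a ribosomal protein, did not pass without glucose (a log2 fold change of 0.038, limma adjusted p = 0.479) and fell by 0.57 on the log2 scale without glutamine (0.000128). UBA1, the main activating enzyme, had 58.4 and 61.3 FPKM without glucose, 79.5 FPKM without glutamine and 76.9 and 73.7 FPKM in control medium. It fell without glucose (-0.33 ± 0.05, limma adjusted p = 0.000783) and did not pass without glutamine (0.078 ± 0.057, 0.287). In the direct comparison of glutamine with glucose deprivation, 4 genes were higher and 3 lower among the other subunits and chaperones, 8 and 6 among the bound and shuttle factors, 4 and 2 around NRF1, and 1 and 3 among ubiquitin and its activating enzymes.

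**Figure D5:**
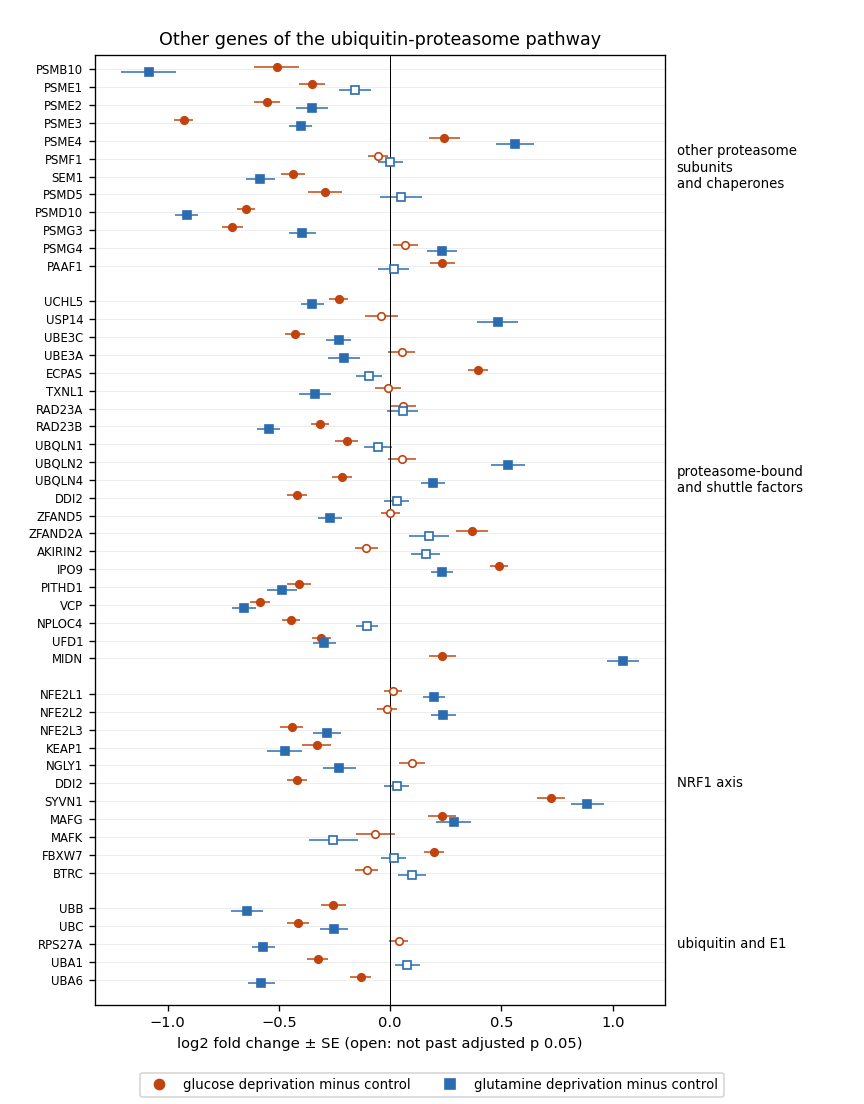
Log2 fold changes with bars of 1 SE for the tested genes of the 4 pathway lists, orange circles for glucose deprivation minus control and blue squares for glutamine deprivation minus control, filled where the adjusted p was under 0.05. Within each list except that of ubiquitin and its activating enzymes, filled symbols lie on both sides of 0, from -1.08 (PSMB10) to 1.05 (MIDN), both without glutamine.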

How the data were processed

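The 36 genes, their roles and the pathway lists were chosen with earlier results of these data known; 1 gene of the ubiquitin list is not reported here. The submitters' processing notes name hg38 as the build and HISAT2 2.0.5 and StringTie as tools. Annotation and strandedness are not given in the sources used here. What the authors deposited was taken to be FPKM. No header names the unit, which was inferred from fractional values, sums of 493129 to 571208 per library and low values of single-exon genes that fall on whole reads (95.2% to 95.8% within 0.05). Inferred depths come from these steps, which give 69.1 to 97.9 reads for a gene of 2 kb at 1 FPKM and a counting error between 10.1% and 12.0%. The table for glutamine deprivation has 1 value column headed as a glucose library, so its sample could not be told and it was not used. A combined deposited table had identical values in the 5 columns used and was left out.

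FPKM were divided by trimmed-mean factors (trims of 30% of ratios and 5% of abundances), which were 1.01 and 0.979 for glucose deprivation, 1.08 for glutamine deprivation and 0.960 and 0.971 for control. Genes with at least 1 FPKM in 1 library, 16598 in all, entered 1 limma 3.58.1 fit in R 4.3.3 on log2(FPKM + 1) over 5 libraries, with a coefficient per group and 2 residual degrees of freedom. Fold changes on this scale understate changes of low genes. Variances were moderated over a trend on inferred reads (mean FPKM times GENCODE release 29 exon length, found for 54986 of 59609 names). The fit was tested on simulated data with few changed genes. Since many genes were called here, that run cannot show whether the scaling or the calls hold. Replicates correlated across tested genes with r = 0.985 for glucose deprivation and r = 0.991 for control. Values in every library are given for catalytic subunits, ATPases, PSMD14, ubiquitin receptors, POMP, PSMG1, PSMG2 and the 3 highest and 3 lowest fold changes of each comparison; other named genes were picked after their values were seen. Alternatives were scaling, pseudocount, filter, variance trend, a replicate block and each library left out. Of 30 named pseudogenes of the 36 genes, none passed the filter (at most 0.445 FPKM). Of the 36 genes 12 share exon bases with a gene on the opposite strand.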

Additional observations from a re-analysis of the deposited data

How the results depend on the processing

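All 36 genes kept their direction in both comparisons with control under every alternative run, except that PSMD9 was not tested with a filter of mean 5 FPKM; without glucose 30 to 35 were called lower and without glutamine 33 to 36. With values as deposited 1 gene (PSMG2) was called higher without glucose (adjusted p = 0.0424), and with upper-quartile scaling PSMD4 and PSMG1 were called lower. As deposited the regulatory median without glucose was -0.50. Without glutamine the core and regulatory medians became -0.56 and -0.46 as deposited, and in the direct comparison -0.064 and -0.0013, with 8 genes lower and 4 higher. With upper-quartile scaling the core medians were -0.60, -0.88 and -0.26 and the regulatory medians -0.62, -0.77 and -0.20 (without glucose, without glutamine, direct), with 24 genes lower and 1 higher in the direct comparison. Without a filter 34222 genes were tested and 9 of the 36 were lower and 1 higher directly. With a filter of mean 5 FPKM 7725 genes were tested, 5414, 5270 and 4614 were called, and the medians of all genes fell to -0.09, -0.20 and -0.10.

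With 1 library left out, calls over all genes ranged from 5624 to 9026 without glucose and from 5486 to 8426 without glutamine. Direct calls of the 36 ranged from 8 to 21 lower and from 1 to 2 higher. The medians without glucose ranged from -0.58 to -0.48 (core) and from -0.56 to -0.49 (regulatory). Without the glutamine-deprived library, its comparisons could not be made.

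Controls and glucose-deprived libraries share replicate numbers, but same-numbered libraries did not deviate together (r = -0.02 across genes), and no label names a shared batch. With the number as a replicate block, 33, 36 and 11 of the 36 were lower and 2 higher directly.

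Directions turned in the direct comparison only, for values near 0; the cause was not tested. As deposited they were 0.059 for PSMA4, 0.013 for PSMA7, 0.11 for PSMB5, 0.11 for PSMC4, 0.033 for PSMC5, 0.024 for PSMD7 and 0.095 for PSMD11. With upper-quartile scaling they were -0.060 for PSMD1 and -0.054 for ADRM1, and with the block 0.038 for PSMB5 and 0.0080 for PSMC4. With 1 library left out, values ranged from -0.093 to 0.061 for PSMB5, from -0.088 to 0.059 for PSMC4, from -0.0039 to 0.030 for PSMD1, from -0.056 to 0.0074 for PSMD11 and from -0.034 to 0.072 for ADRM1, each turned by leaving out 1 glucose-deprived library. The glutamine-deprived group is 1 library without a spread of its own, so the error of its comparisons was estimated from the other groups.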
